A study of Mus musculus with 4 samples.

Results

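The SLC25 family is the largest family of transporters of the inner mitochondrial membrane. Its members, the mitochondrial carriers, exchange nucleotides, phosphate, amino acids, organic acids, cofactors and metal ions between the cytosol and the matrix. The inner membrane is otherwise closed to such solutes, and in the heart the exchange of ADP for ATP by adenine nucleotide translocases couples respiration to contraction. Carriers are encoded by nuclear genes, translated in the cytosol and inserted into the inner membrane by the TIM22 complex, mostly without a cleaved targeting signal.

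SLC25 mRNAs were compared between the mitochondrial fraction and the remaining tissue of wild-type (WT) adult mouse hearts, with 2 libraries each. The remaining tissue, called rest, was the low-speed pellet of heart homogenate, whereas mitochondria were pelleted from the supernatant at higher speed and then treated with digitonin and RNase A. The methods describe these treatments and an adjusted fragmentation time for mitochondria only, so their effects and that of the fraction cannot be told apart. The fractions came from whole hearts and hold RNA of every cardiac cell type, and fewer cells of a type cannot be told apart from less RNA per cell. Members were all protein-coding genes whose symbol is Slc25a followed by a number, except Slc25a1 and Slc25a20. This rule found 37 of the 15746 genes listed, of which 12321 were protein-coding. Slc25a2, Slc25a14, Slc25a21, Slc25a31, Slc25a41, Slc25a43, Slc25a48 and Slc25a54 were not analysed here. The members lay on 17 chromosomes, with 2 of them on the X chromosome.

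Values were normalized counts, that is, reads on the exons of a gene divided by a size factor of the library and rounded by the authors. The libraries held approximately 23500000 to 47400000 reads on genes, and 93.5% to 97.6% of the normalized counts in mitochondria and 63.2% to 67.5% in rest came from the mitochondrial chromosome. The depth behind nuclear genes was therefore lower in mitochondria. Each read added 3.87 (replicate 1) and 2.55 (replicate 2) to the value of a gene in mitochondria, but 0.264 (replicate 1) and 0.365 (replicate 2) in rest. The 37 members together rested on approximately 3905 and 4852 reads in mitochondria and on 29935 and 21019 in rest. A median member had 7 and 13 reads in mitochondria, and 6 members had at least 50 reads in every library. A gene with 3 reads would be listed at 11.6 and 7.65 normalized counts in mitochondria, so that values near this level rest on very few molecules. PCR copies cannot be told apart in these libraries, and such limits cover counting error only.

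Several carriers are close paralogs, and the first question was whether reads could be told apart between them. The adenine nucleotide translocases Slc25a4 (ANT1), the main isoform of heart and skeletal muscle, and Slc25a5 (ANT2), the more widely expressed isoform, had coding sequences of 894 bases each that were identical at 77.4% of positions. The longest identical run was 20 bases, and the most alike 75-base window, the length of a sequencing read, still held 8 differences. This window covers coding bases 52 to 126 of both mRNAs and spans the junction of exons 1 and 2 of 4. In GRCm38 it lies at chr8:46210812-46210871 and chr8:46209494-46209508 on the minus strand for Slc25a4, and at chrX:36795782-36795841 and chrX:36796843-36796857 on the plus strand for Slc25a5. Both are shown 5′ to 3′ with the differing bases in capitals, because the comparison of the most abundant carrier rests on separating them.
Slc25a4: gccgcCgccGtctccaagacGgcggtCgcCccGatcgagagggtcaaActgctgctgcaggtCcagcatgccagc
Slc25a5: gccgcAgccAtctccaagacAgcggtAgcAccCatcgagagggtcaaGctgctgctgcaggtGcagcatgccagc

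The aspartate/glutamate carriers of the malate-aspartate shuttle, Slc25a12 (aralar) and Slc25a13 (citrin), were identical at 72.1% of aligned coding positions. Their most alike 75-base window also held 8 differences and lies within exon 11 of 18, at chr2:71296666-71296740 for Slc25a12 and chr6:6109182-6109256 for Slc25a13, both on the minus strand. It is shown because these carriers were next in abundance per kilobase of exon after the 4 leading ones.
Slc25a12: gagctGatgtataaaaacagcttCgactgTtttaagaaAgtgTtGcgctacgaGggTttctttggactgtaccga
Slc25a13: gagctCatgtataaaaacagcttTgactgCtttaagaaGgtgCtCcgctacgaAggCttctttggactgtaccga

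The mitoferrins Slc25a28 and Slc25a37, which import iron into the matrix, were identical at 71.1% of aligned positions, with 10 differences in the most alike window. It lies in exon 4 of 4 at chr19:43664468-43664542 for Slc25a28 and at chr14:69245179-69245253 for Slc25a37, both on the minus strand. It is shown because both members were lower in mitochondria without overlap of the libraries, as were 33.4% of all tested genes. Neither passed the test.
Slc25a28: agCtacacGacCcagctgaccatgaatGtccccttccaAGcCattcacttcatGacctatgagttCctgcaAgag
Slc25a37: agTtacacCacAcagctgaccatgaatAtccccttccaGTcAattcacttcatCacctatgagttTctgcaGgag

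Sharing with other genes was searched over every 75-base window of 36 representative transcripts (GENCODE M21). Of these members, 14 shared at least 1 window, on either strand, with a transcript of another annotated gene and 22 shared none, among them Slc25a4 and Slc25a11. Slc25a5 shared the most, with 325 of 1166 windows (27.9%) identical to transcripts of 6 genes, among them Slc25a5-ps. Slc25a33 followed with 11.4% and Slc25a36 with 9.76%. The authors excluded reads that aligned to several regions. Counts of members that share windows with genes elsewhere, such as Slc25a5 and Slc25a36, are therefore uncertain and can be too low in all 4 libraries. Other shared windows lie on the opposite strand of the same locus, as for Slc25a33 with Gm13068, and reads from them align to a single region. Exons of 11 members, some of them counted above, overlap exons of a gene on the other strand, among them Slc25a11 with Rnf167 and Slc25a35 with Rangrf. The use of strand in counting is not given in the sources used here, and reads of such pairs may not have been told apart.

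Levels between genes are given as normalized counts per kilobase of merged exons, and 4 members dominated the family on this measure. Merged exons join all transcripts of a gene and can be far longer than the representative transcript, so ranks and ratios between genes depend on this length. Slc25a4 reached 3900 ± 599 in mitochondria and 1892 ± 19.5 in rest (mean ± SD, n = 2 each, for all means below). Slc25a3, the phosphate carrier that supplies phosphate for ATP synthesis, followed with 351 ± 38.3 and 217 ± 8.66. Slc25a11, the oxoglutarate/malate carrier of the malate-aspartate shuttle, had 265 ± 82.4 and 127 ± 17.7, and Slc25a5 had 169 ± 21.1 and 87.5 ± 6.01. The order of these 4 was the same in mitochondria and in rest. Per kilobase, Slc25a3 and Slc25a11 in mitochondria differed by little more than the SD of Slc25a11, but this rests on the length used. The merged exons of Slc25a3 span 5550 bases and its representative transcript 1612, against 2120 and 1711 for Slc25a11. Before division by length, their means in mitochondria were 1948.5 ± 213 and 562.5 ± 175 normalized counts. Slc25a13 with 63.8 ± 15.1 and 56.9 ± 1.12, and Slc25a12 with 47.7 ± 5.68 and 38.6 ± 0.482, came next. Slc25a39, Slc25a34, Slc25a46 and Slc25a51 completed the 10 highest members, and their means lay between 15.4 and 42.8 in either fraction. The remaining 27 members had per-kilobase means of at most 17.2.

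**Figure D1:**
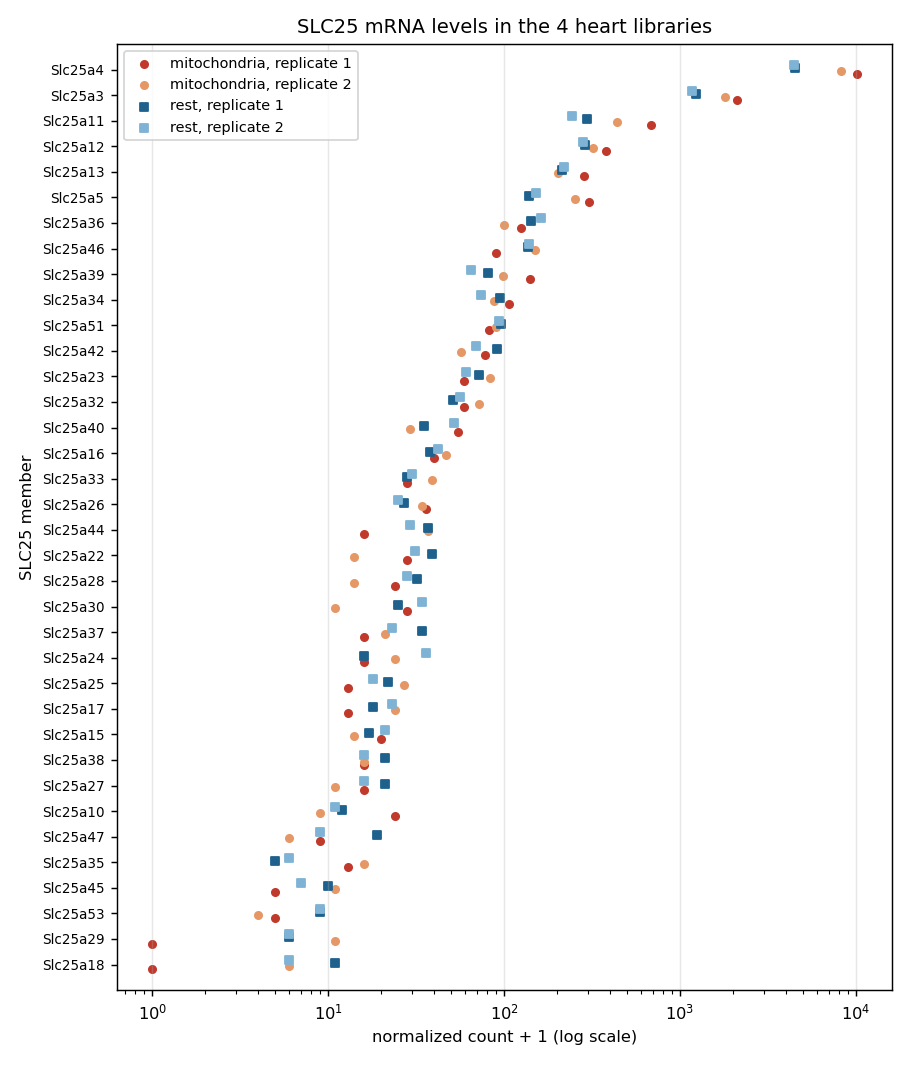
Normalized count plus 1 (x axis, log scale) of 36 SLC25 members (y axis, ordered by mean) in the 2 mitochondrial libraries (circles) and the 2 rest libraries (squares). Slc25a4 lay at 4420 or more in every library, and the circles lay to the right of the squares for Slc25a4, Slc25a3, Slc25a11 and Slc25a5.

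The question of the comparison was which carrier mRNAs differed between the mitochondrial fraction and the rest of the heart. The test was limma's moderated test on log2 of the normalized count plus 1, over 12150 genes that reached 10 normalized counts in 2 or more libraries, followed by Benjamini-Hochberg adjustment over all of them. It covered 32 members. At an adjusted p-value under 0.05, 0 of 32 members were higher and 0 were lower in mitochondria, while 2.16% and 1.39% of all tested genes were called in these directions. At an unadjusted p-value under 0.05, 6 members were higher (14.1% of all genes) and 0 were lower (16.2% of all genes). The libraries of the fractions did not overlap for 10 tested members with higher and 5 with lower values in mitochondria, beside 27.7% and 33.4% of all genes. Log2 fold changes, given as mitochondria minus rest throughout, were positive for 16 of 32 members and for 43.8% of all genes. The counts of 6, 10 and 16 members, and later ones by level and length, include Slc25a35. It reached the filter of 10 normalized counts only in the mitochondrial libraries, where it was high. The median over members was -0.0043, beside -0.14 over all tested genes, and 18 of 32 members lay above the median gene. Directions depend on how libraries are scaled. Scaled to the library total, the median of all genes was -3.93 and all 32 members were called lower, as were 98.9% of all genes. Scaled to the total without the mitochondrial chromosome the median was -0.98, and 4 members and 31.4% of all genes were called lower. Above the median gene lay 20 and 18 members under these scalings, and directions in the following are those of the deposited scaling. Without any single library, limma called 0 genes in either direction, whereas 1896, 2333, 590 and 645 genes higher and 2706, 3324, 468 and 549 lower passed the limit before adjustment without mitochondrial replicates 1 and 2 and rest replicates 1 and 2.

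The members were then split by their level. Of the 14 members whose mean exceeded 50 normalized counts, 10 showed a positive log2 fold change (47.7% of all genes above this level), and their median was 0.25 beside -0.05 for such genes. Their libraries did not overlap for 7 members with higher and 2 with lower values in mitochondria, beside 33.3% and 36.1% of genes above this level. Of the 18 tested members below this level, 6 were positive (40.5% of all genes below this level), and the median was -0.19 beside -0.22.

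The ADP/ATP and phosphate carriers together deliver the substrates of ATP synthase and export its product. With the deposited scaling all 3 had higher values in mitochondria, without a call at the threshold. Scaled to library totals, all 3 were lower. With totals without the mitochondrial chromosome, log2 fold changes were near 0 relative to their SE. They were 0.17 ± 0.34 for Slc25a4, 0.08 ± 0.29 for Slc25a5 and -0.17 ± 0.30 for Slc25a3. Slc25a4, at chr8:46206797-46211284, had 10174 and 8181 normalized counts in mitochondria and 4485 and 4420 in rest. Both mitochondrial libraries lay well above both rest libraries, which hardly differed. The log2 fold change was 1.03 ± 0.21 (SE), with an adjusted p-value of 0.0636 in limma. Slc25a3, at chr10:91116574-91124059, had 2099 and 1798 normalized counts in mitochondria and 1239 and 1171 in rest, again without overlap, and its log2 fold change was 0.69 ± 0.17 (limma, adjusted p = 0.0831). Slc25a5, at chrX:36795651-36798807, had 302 and 253 in mitochondria and 137 and 151 in rest (log2 fold change 0.94 ± 0.19, limma, adjusted p = 0.0637). The fold of Slc25a5 was close to that of its paralog: the ratio of Slc25a4 to Slc25a5 per kilobase was 23.6 and 22.6 in mitochondria and 22.9 and 20.5 in rest. In contrast, the ratio of Slc25a4 to Slc25a3 was 11.4 and 10.7 in mitochondria and 8.54 and 8.90 in rest, without overlap. These ratios do not depend on the scaling between libraries, but their size depends on the exon lengths used. Slc25a5 shared 27.9% of its windows with other genes, whereas Slc25a4 shared 0%. Counts of Slc25a5 can therefore be too low, and the ratio of Slc25a4 to Slc25a5 too high, in every library. Relative to the median gene, the log2 fold change was 1.17 for Slc25a4, 0.83 for Slc25a3 and 1.08 for Slc25a5 with the deposited scaling, 0.98, 0.63 and 0.90 with library totals, and 1.15, 0.80 and 1.05 with totals without the mitochondrial chromosome. The set of genes tested changed the call: among the 5556 genes with a mean above 50, where 14.2% of genes were called higher and 12.1% lower in mitochondria, limma gave Slc25a4 an adjusted p-value of 0.0338 and Slc25a5 one of 0.0259, while Slc25a3 had 0.0677.

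Carriers of dicarboxylates, oxoglutarate, aspartate and glutamate were led by Slc25a11. It had 686 and 439 normalized counts in mitochondria and 295 and 242 in rest (chr11:70644196-70647479). The mitochondrial libraries differed more from each other than for Slc25a4, yet both lay above rest, and the log2 fold change was 1.04 ± 0.28 (limma, adjusted p = 0.0928). Relative to the median gene it was 1.18, and 0.99 and 1.15 with library totals and with totals without the mitochondrial chromosome. The log2 fold change itself was -2.94 ± 0.62 and 0.17 ± 0.38 under these scalings. With the deposited scaling, leaving out a mitochondrial library changed its size. The log2 fold change was 0.71 without mitochondrial replicate 1 and 1.36 without mitochondrial replicate 2. Among genes with a mean above 50 the adjusted p-value of Slc25a11 was 0.0396 in limma. Slc25a12, its partner in the malate-aspartate shuttle, had 380 and 321 in mitochondria and 286 and 281 in rest, a smaller difference without overlap (log2 fold change 0.30 ± 0.18, limma, adjusted p = 0.316). Slc25a13 had 283 and 202 in mitochondria and 213 and 219 in rest, so that the rest libraries lay between the mitochondrial ones. The ratio of Slc25a12 to Slc25a13 per kilobase was 0.695 and 0.822 in mitochondria and 0.695 and 0.664 in rest, and hence hardly differed between fractions. The glutamate carrier Slc25a22 had 27 and 13 in mitochondria and 38 and 30 in rest, with a log2 fold change of -0.81 ± 0.45 (limma, adjusted p = 0.292). It was -1.31 without mitochondrial replicate 1 and -0.31 without mitochondrial replicate 2. Its paralog Slc25a18 was not tested and was listed at 0 and 5 in mitochondria and at 10 and 5 in rest. The dicarboxylate carrier Slc25a10 had 23 and 8 in mitochondria and 11 and 10 in rest, which overlapped. Of the 5 tested carriers of this group, 4 had positive log2 fold changes, and their median was 0.30.

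**Figure D2:**
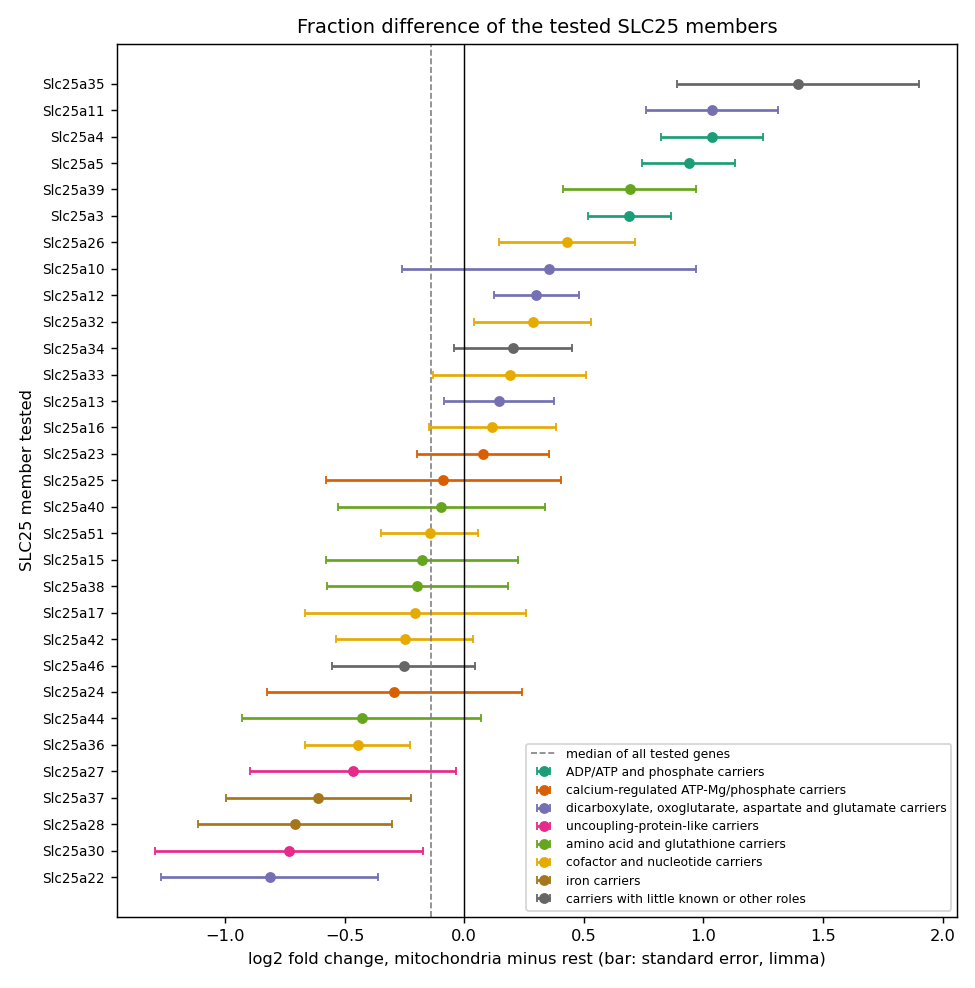
Log2 fold change of mitochondria minus rest (x axis) with its standard error from limma (bars) for 31 tested SLC25 members (y axis), coloured by the role of the carrier, with the median of all tested genes as a dashed line at -0.14. The ADP/ATP and phosphate carriers lay between 0.69 and 1.03, whereas both iron carriers lay at or below -0.61.

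The ATP-Mg/phosphate carriers, which adjust the adenine nucleotide pool of the matrix in response to cytosolic calcium, showed no clear difference between fractions. Slc25a23 had 58 and 82 normalized counts in mitochondria and 71 and 60 in rest, Slc25a24 had 15 and 23 against 15 and 35, and Slc25a25 had 12 and 26 against 21 and 17. The libraries of the fractions overlapped for all 3. Log2 fold changes were 0.08 ± 0.28 for Slc25a23, -0.29 ± 0.53 for Slc25a24 and -0.09 ± 0.49 for Slc25a25. In mitochondria Slc25a24 rested on 4 and 9 reads and Slc25a25 on 3 and 10, so larger differences could have been missed. Slc25a23 was the most abundant of them per kilobase, at 13.2 ± 3.21 in mitochondria and 12.4 ± 1.47 in rest.

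Among amino acid and glutathione carriers, Slc25a39, which transports glutathione into the matrix, had the highest level. It had 139 and 97 normalized counts in mitochondria and 80 and 64 in rest, without overlap (log2 fold change 0.69 ± 0.28, limma, adjusted p = 0.179). Its paralog Slc25a40 had 54 and 28 in mitochondria and 34 and 51 in rest, with full overlap and a log2 fold change of -0.10. The ratio of Slc25a39 to Slc25a40 per kilobase was 7.83 and 10.5 in mitochondria and 7.16 and 3.82 in rest. Its size depends on the length used, since the merged exons of Slc25a40 span 8386 bases and its representative transcript 2784. The ornithine carrier Slc25a15, the glycine carrier Slc25a38 and Slc25a44, a carrier of branched-chain amino acids, had 13 to 36 normalized counts in every library and negative log2 fold changes down to -0.43. Slc25a44 had 15 and 36 in mitochondria and 36 and 28 in rest, so that its mitochondrial libraries spanned nearly the whole range. The basic amino acid carrier Slc25a29 was listed at 0 and 10 in mitochondria and at 5 in both rest libraries and was not tested. Of the 5 tested carriers of this group only Slc25a39 had a positive log2 fold change with all libraries, and the median was -0.18. Leaving out 1 library gave positive values of up to 0.37 for Slc25a40, 0.18 for Slc25a44 and 0.08 for Slc25a15.

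Of the 9 cofactor and nucleotide carriers, 5 had positive and 4 negative log2 fold changes, with a median of 0.12. Slc25a26, which carries S-adenosylmethionine, had 35 and 33 against 26 and 24, and Slc25a32, a folate and FAD carrier, had 58 and 71 against 50 and 55. Both were higher in each mitochondrial library than in each rest library, by 0.43 and 0.29 on the log2 scale. Slc25a16, Slc25a17 and the pyrimidine nucleotide carrier Slc25a33 had 12 to 46 normalized counts in every library, and the fractions overlapped. Their log2 fold changes lay between -0.20 and 0.19. The NAD carrier Slc25a51 had 81 and 89 in mitochondria and 95 and 93 in rest, and the pyrimidine nucleotide carrier Slc25a36 had 124 and 99 against 141 and 162. For both, each mitochondrial library lay below each rest library, with log2 fold changes of -0.15 ± 0.20 and -0.44 ± 0.22 (limma, adjusted p = 0.657 and 0.245). The coenzyme A carrier Slc25a42 had 77 and 56 in mitochondria and 90 and 68 in rest, which overlapped.

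Both iron carriers lay lower in mitochondria. Slc25a28 (mitoferrin 2), the form of most tissues, had 23 and 13 normalized counts in mitochondria and 31 and 27 in rest, and Slc25a37 (mitoferrin 1), known for its role in red cell precursors, had 15 and 20 against 33 and 22. The log2 fold changes were -0.71 ± 0.41 and -0.61 ± 0.39 (limma, adjusted p = 0.303 and 0.343). Without mitochondrial replicate 1 they were -1.10 and -0.41, without mitochondrial replicate 2 -0.32 and -0.81, and without rest replicate 1 -0.61 and -0.33. The mitochondrial values rested on fewer than 10 reads in each library. Globin mRNAs and Alas2, markers of blood, were also lower in mitochondria without overlap in 5 of 5 cases, beside 33.4% of all tested genes. At an adjusted p-value under 0.05, 0 of them were called. Their summed normalized counts were 50 and 341 against 824 and 440, with a wide spread between the mitochondrial libraries. The part of blood in the values of the mitoferrins was not tested. The uncoupling-protein-like carriers Slc25a27 and Slc25a30 had 10 to 27 in mitochondria and 15 to 33 in rest, with overlap and log2 fold changes of -0.47 and -0.73.

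Among carriers with other or little known roles, Slc25a34 had 105 and 87 normalized counts in mitochondria and 94 and 73 in rest (log2 fold change 0.20 ± 0.25). Slc25a46, an outer membrane protein of mitochondrial dynamics despite its family name, had 89 and 148 against 136 and 138, so that the mitochondrial libraries lay on both sides of rest. Slc25a35 had 12 and 15 in mitochondria and 4 and 5 in rest, and a log2 fold change of 1.40 ± 0.51 (limma, adjusted p = 0.153). This was the largest of the tested members with a pseudocount of 1, but it was 0.69 with a pseudocount of 10 and then below Slc25a4, Slc25a11 and Slc25a5. Slc25a35 reached the filter of 10 normalized counts only through the mitochondrial libraries. With rest values of 4 and 5, only higher values in mitochondria could bring it into the test, so its fold change does not support a difference. It was named after its values were seen, as one of the 6 members with an unadjusted p-value under 0.05, and its mitochondrial values are worth 3 to 6 reads. The rest of the group was not tested. Slc25a45 was listed at 4 and 10 in mitochondria and at 9 and 6 in rest, and Slc25a47, known from liver, at 8 and 5 against 18 and 8. Slc25a53 was listed at 4 and 3 in mitochondria and at 8 in both rest libraries. These levels were at or close to the value of 3 reads in mitochondria, and no difference was detectable at this depth.

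The summed normalized counts of the 37 members were 15122 and 12377 in mitochondria and 7910 and 7681 in rest. The 4 members that led per kilobase accounted for this difference. The sum over the other 33 was 1861 and 1706 in mitochondria and 1754 and 1697 in rest. Slc25a4 took 66.7% ± 0.835 of the family's normalized counts in mitochondria and 57.1% ± 0.597 in rest, which is larger than the spread between replicates. Slc25a3 took 14.2% ± 0.457 and 15.5% ± 0.296, and the other 33 members 13.0% ± 1.04 and 22.1% ± 0.0573 (SD, n = 2 each). Among these 33, Slc25a12 took more than Slc25a5 in both fractions, and Slc25a13 took more in rest only. Slc25a12 took 2.55% ± 0.057 and 3.64% ± 0.0302, and Slc25a13 1.75% ± 0.169 and 2.77% ± 0.112. Slc25a5 took 2.02% ± 0.0333 and 1.85% ± 0.165. Shares within a library do not depend on its size factor. As a share of all normalized counts outside the mitochondrial chromosome, the family made up 0.286% ± 0.0746 in mitochondria and 0.292% ± 0.0238 in rest (SD, n = 2 each), a difference smaller than the spread. An exact two-sided permutation test of 2 against 2 libraries can reach 0.333 at best and was therefore not run on these shares.

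**Figure D3:**
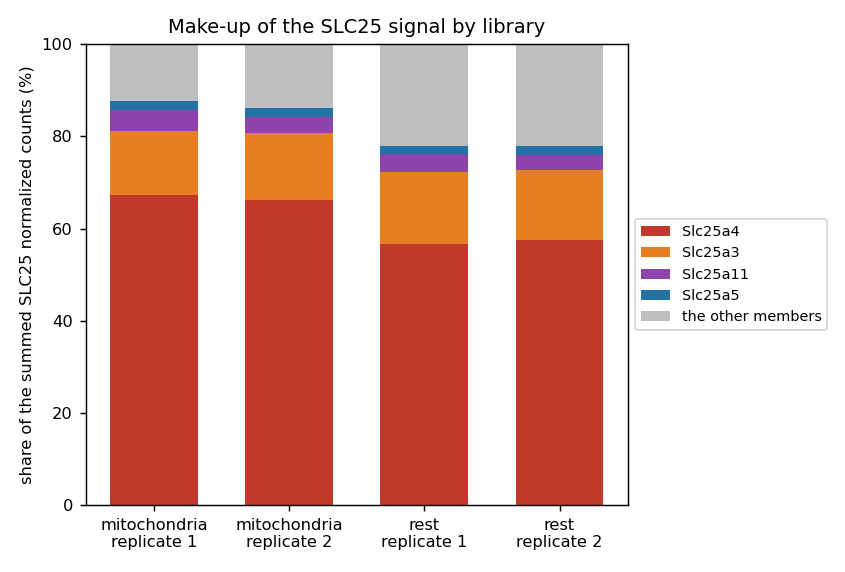
Share of the summed SLC25 normalized counts in percent (y axis) taken by Slc25a4, Slc25a3, Slc25a11, Slc25a5 and the other 33 members in each of the 4 libraries (x axis). The segment of the other members was 22.1% in rest and 13.0% in mitochondria (means of 2 libraries), and that of Slc25a4 was wider in both mitochondrial libraries.

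The members vary in mRNA length, from 1240 bases for Slc25a5 to 6351 for Slc25a12, and fragmentation differed between the fractions, so the fold changes were set beside the length of the representative transcript. Of 11 tested members shorter than 2000 bases, 8 had positive log2 fold changes and the median was 0.69. Of the 21 longer ones, 8 were positive and the median was -0.15. The same was seen over all tested nuclear protein-coding genes, of which 73.4% of the shorter and 34.5% of the longer ones were positive, with medians of 0.54 and -0.29. Across the 32 members, Pearson's r of log2 fold change and log2 length was -0.46 and Spearman's rho -0.45, beside -0.42 and -0.43 across 10611 genes. These describe genes measured in the same 4 libraries and are not a test. Slc25a4, Slc25a3, Slc25a11 and Slc25a5 had transcripts of 1925, 1612, 1711 and 1240 bases and thus belonged to the shorter members. Slc25a28, with 1535 bases, had a log2 fold change of -0.71, and Slc25a12, the longest, one of 0.30. Without the 4 leading members, r was -0.26 and rho -0.28 over 28 members. The part of length in the differences between members was not tested.

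**Figure D4:**
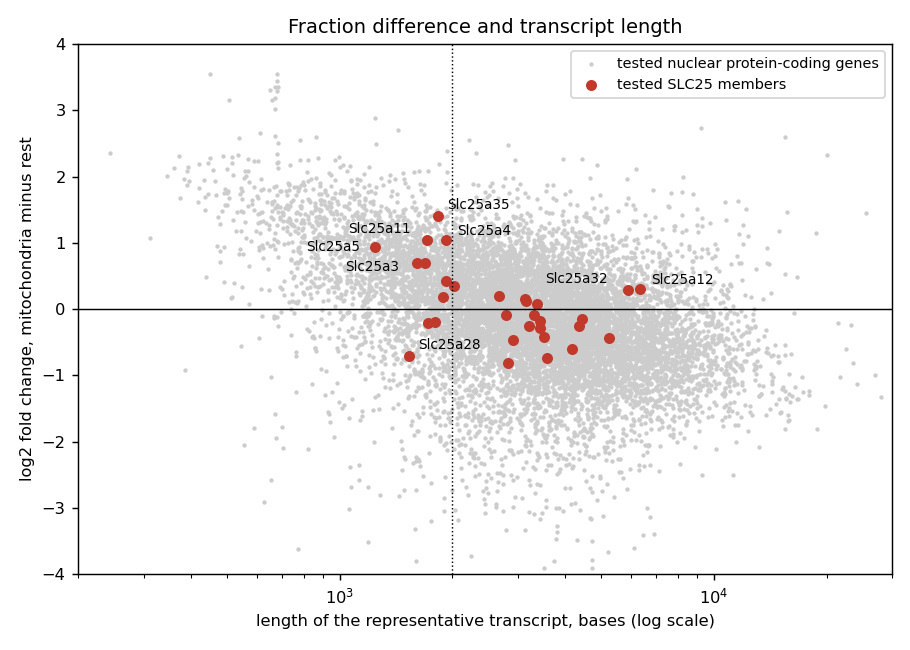
Log2 fold change of mitochondria minus rest (y axis) against the length of the representative transcript in bases (x axis, log scale) for 31 tested SLC25 members (red) and the 10611 tested nuclear protein-coding genes (grey, 8 of them outside the axes), with a dotted line at 2000 bases. Points of both colours fell from upper left to lower right, and Slc25a4, Slc25a3, Slc25a11 and Slc25a5 lay left of the line.

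Related transporters were examined in lists made by function. Of 14 other inner membrane transporters, 1 was higher and 0 were lower in mitochondria at an adjusted p-value under 0.05, beside 2.16% and 1.39% of all tested genes. The median log2 fold change was 0.01 beside -0.14 over all genes, and the same background applies to the lists that follow. The member called was Mpc2, a subunit of the mitochondrial pyruvate carrier, with 554 and 597 normalized counts in mitochondria and 219 in both rest libraries (log2 fold change 1.39 ± 0.16, limma, adjusted p = 0.0427). Of 10 genes of the import route of carriers, 1 was higher and 0 were lower, with a median of 0.54. This was Timm8b, a small chaperone of the intermembrane space, with 136 and 105 in mitochondria and 24 and 34 in rest (log2 fold change 2.03 ± 0.30, limma, adjusted p = 0.0469). Of 5 tested carrier relatives outside the rule, 0 were called by limma. Before adjustment 1 was higher, the carnitine/acylcarnitine carrier Slc25a20, as were 14.1% of all tested genes. Log2 fold changes were positive for 4 of the 5, beside 43.8% of all tested genes, with a median of 0.37.

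Markers of cell types were compared in the same way. The 8 cardiomyocyte markers were all present, with sums of 286826 and 212511 normalized counts in mitochondria and 240801 and 211746 in rest, which overlapped. Of them 6 were higher in both mitochondrial libraries than in both rest libraries (27.7% of all genes), with log2 fold changes from 0.59 for Pln to 1.88 for Tnnt2, in the direction of Slc25a4, Slc25a3, Slc25a11 and Slc25a5. Whether the 6 markers and the 4 carriers were higher for the same reason was not tested. Ryr2 lay lower without overlap, with 10159 and 6395 in mitochondria and 22792 and 18549 in rest (log2 fold change -1.35), and Myh6 overlapped at -0.20. Log2 fold changes were positive for 5 of 5 fibroblast markers (sums of 8188 and 3440 against 2175 and 3063) and 4 of 4 immune cell markers (360 and 210 against 135 and 160). Over all tested genes 43.8% were positive. Log2 fold changes were negative for 5 of 5 endothelial markers (1465 and 1257 against 2403 and 2231). Of 4 smooth muscle and pericyte markers, 3 were negative, with sums of 1372 and 1594 against 2488 and 3038, and Myh11 was called lower (limma, adjusted p = 0.0427). Skeletal muscle markers overlapped between fractions, at 593 and 974 against 249 and 698 in sum. Of the brown fat markers only Cidea was analysed here, with 23 and 31 against 9 and 10. At an adjusted p-value under 0.05, the other markers were not called. The part of cell composition in the values of the carriers was not tested.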

How the data were processed

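RNA sequencing of 2 mitochondrial and 2 rest libraries of mouse heart was used. According to the processing notes of the submitters, reads were handled with Trimmomatic 0.39, STAR 2.7.10a, featureCounts 2.0.2 and DESeq2 1.30.1 on mm10 (GRCm38), and reads on several genes or regions were excluded. The deposited signal of each gene is its count after division by the size factor of the library, which the authors rounded to whole numbers. Reads per library were estimated from the spacing of the values. In rest a read is worth less than 1 unit, so counts could not be restored and no count model was used.

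Genes that reached 10 normalized counts in 2 or more of the 4 libraries were tested with limma 3.58.1 (R 4.3.3, mean-variance trend) on log2(value + 1), which understates changes of low genes, with Benjamini-Hochberg adjustment over all of them and a limit of 0.05. The script was tested on simulated data. The labels do not say that replicates came from separate animals, so p-values measure the spread between these libraries. Lengths and sequences came from GENCODE M21. Representative transcripts were searched for shared 75-base windows, except Slc25a46. Named members were the 10 highest per kilobase, the 3 largest and 3 most negative log2 fold changes among members with a mean above 50, paralog sets and untested members, and others are marked or given briefly by role. Genes of related lists were named when called. Members and lists were chosen with earlier results of these data known. Alternatives were other filters, pseudocounts of 0.1 and 10, other scalings, the replicate block and leaving out each library. Values of 1 member are counted in the totals but not reported here.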

Additional observations from a re-analysis of the deposited data

How the results depend on the processing

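With 2 libraries in each fraction and few reads behind most carriers in mitochondria, the values of most members are imprecise. The number of members higher in mitochondria was 0 as reported and 3 among genes with a mean above 50 (Slc25a4, Slc25a5 and Slc25a11), and the number lower was 32 with library totals and 4 with totals without the mitochondrial chromosome (Slc25a36, Slc25a37, Slc25a46 and Slc25a51). The median of the members was -0.15 without a filter, 0.25 above a mean of 50, 0.016 with a pseudocount of 10, 0.012 with TMM, -3.82 with library totals and -0.84 with totals without the mitochondrial chromosome. Over all genes, higher and lower calls numbered 262 and 169 as reported, 630 lower without a filter, 790 and 670 above a mean of 50, 536 and 580 with a pseudocount of 10, 443 and 316 with TMM, 2 and 12022 with library totals and 129 and 3819 with totals without the mitochondrial chromosome. With a pseudocount of 0.1, limma called 0 and 0, whereas 1694 and 1754 passed an unadjusted limit of 0.05.

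The labels do not say that a replicate number marks shared animals, and across 12150 genes the replicate differences of the fractions correlated at r = 0.13. Fitted with a replicate block, 470 genes were higher and 309 lower, and 1 member, Slc25a11, was higher (limma, adjusted p = 0.0486), while 3.87% of all genes were called higher and 2.54% lower.

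With library totals, 10 named log2 fold changes turned negative: Slc25a3 -3.30, Slc25a4 -2.95, Slc25a5 -3.03, Slc25a11 -2.94, Slc25a12 -3.67, Slc25a13 -3.82, Slc25a23 -3.82, Slc25a34 -3.72, Slc25a35 -2.07 and Slc25a39 -3.24. With totals without the mitochondrial chromosome, 6 did: Slc25a3 -0.17, Slc25a12 -0.56, Slc25a13 -0.71, Slc25a23 -0.77, Slc25a34 -0.65 and Slc25a39 -0.16. Both scalings lower every gene relative to the deposited scaling by construction.

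Without each library in turn, a fraction is left with 1 library, which is assumed to vary like the other fraction. The numbers of genes called were then 0 and 0, 0 members were called, and the median of the members ranged from -0.0105 to 0.14. Log2 fold changes changed sign for Slc25a13 (-0.10 to 0.39), Slc25a23 (-0.17 to 0.32), Slc25a24 (-0.88 to 0.29), Slc25a25 (-0.61 to 0.44), Slc25a40 (-0.56 to 0.37) and Slc25a46 (-0.62 to 0.11), and among the less abundant members also for Slc25a10 (-0.35 to 1.06), Slc25a15 (-0.43 to 0.08), Slc25a17 (-0.65 to 0.24), Slc25a33 (-0.05 to 0.43) and Slc25a44 (-1.03 to 0.18). They kept it for Slc25a4 (0.88 to 1.19), Slc25a3 (0.58 to 0.80), Slc25a11 (0.71 to 1.36) and Slc25a5 (0.81 to 1.06).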
